A study of Mus musculus with 8 samples.

Results

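The CHD family of chromatin remodellers was followed in AtT-20 cells, a mouse pituitary line of corticotrope type, while an introduced ER-Pax7 was switched on with tamoxifen. Its 9 genes, Chd1 to Chd9, were taken by name from the 55401 genes with a value in each of 8 RNA-seq libraries. The family was chosen by the measured fall of Chd9 in these same libraries, over 0, 24, 48 and 72 h of tamoxifen. The levels of Chd9 are therefore given as a description. It stays in the fit over all genes and in counts over the whole family, where nothing is read from its call, and the comparisons reported concern the other 8 members and their partner genes. Each of the 4 tamoxifen times has 2 libraries. The 0 h cells carry ER-Pax7 too, all groups are the same line, and nothing in the labels says whether it is 1 clone, so the activated factor, the drug and the hours in culture cannot be told apart.

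CHD proteins join a pair of chromodomains, which bind histone tails, to a motor of the SNF2 type that spends ATP to move or eject nucleosomes. Subfamily I, Chd1 and Chd2, works with transcribing RNA polymerase. Subfamily II, Chd3, Chd4 and Chd5, supplies the motor of the NuRD complex, which also deacetylates histones. Subfamily III, Chd6 to Chd9, acts mostly at enhancers and promoters; Chd7 is mutated in CHARGE syndrome, Chd8 in some forms of autism, and Chd9 is described as a coactivator of nuclear receptors such as PPAR alpha.

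Chd9 is the member whose fall led to the choice of the family, so the sequence around its starts is shown. RefSeq, on GRCm38.p6, gives it 2 start windows of 300 bases, each holding 250 bases before the start and 50 after it. The first start, base 90828835 of chromosome 8, lies inside the first exon listed for the gene, and the second, base 90932249, is the first base of a later exon. Both are on the plus strand, and capitals mark each CG dinucleotide, the letters on which DNA methylation is placed, since demethylation is named in the series title.
Chd9 first start, chr8:90828585-90828884: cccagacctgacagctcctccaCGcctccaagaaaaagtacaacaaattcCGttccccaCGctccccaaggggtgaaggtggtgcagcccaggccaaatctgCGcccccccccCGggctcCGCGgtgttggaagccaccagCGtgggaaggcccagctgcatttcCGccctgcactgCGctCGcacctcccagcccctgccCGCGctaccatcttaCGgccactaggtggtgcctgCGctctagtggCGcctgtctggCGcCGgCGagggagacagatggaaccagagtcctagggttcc
Chd9 second start, chr8:90931999-90932298: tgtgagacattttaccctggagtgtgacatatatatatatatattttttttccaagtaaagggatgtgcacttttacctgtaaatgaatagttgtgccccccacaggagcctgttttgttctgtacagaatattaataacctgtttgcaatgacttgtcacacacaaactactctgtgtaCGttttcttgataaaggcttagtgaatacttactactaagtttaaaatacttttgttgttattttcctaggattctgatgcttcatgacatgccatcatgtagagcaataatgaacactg

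The first window held 19 CG, a number reached by 28.1% of all 32851 such windows, and the second held 1, reached by 94.6%. Windows were found for 5 of the 9 members, Chd4, Chd5, Chd6, Chd8 and Chd9, 8 windows in all, and outside the second start of Chd9 they held 17 to 33 CG. A homeodomain site, TAATTA, which reads the same on both strands, was looked for because Pax7 carries a homeodomain. It occurred in 5.29% of all windows and in 0 of the 8 CHD windows, which says only that these letters are not in these windows. The windows of Chd4 overlap each other, as do those of Chd5, so the 8 are not separate stretches. Values were 1 per gene, so transcripts from the 2 starts of Chd9 were not separated. The second start is the first base of a later exon, so its window may only span an intron and exon border. Whether transcription begins there was not tested.

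The values are the average read coverage of a gene's pooled exons, called signal here, and can be compared between genes because they are per base. Sums over all genes were 164236 to 178548 per library. The corticotrope markers Pomc, Tbx19, Neurod1, Pcsk1 and Nr3c1 were present, and Crhr1 was low at a mean of 0.0753; the 6 summed to between 538 and 732 in each library. Markers of muscle, fibroblasts, endothelium and immune cells each summed, list by list, to at most 0.555 in any library, with Myod1, Myf5, Myog, Col1a2, Lum, Kdr and Cd3e at 0 throughout. Of 4 neuronal markers 2 were above a mean of 1, and the 4 summed to 17.4 and 29.7 at 0 h and to 14.1 to 19.9 later. Markers moved with tamoxifen time too. Nr3c1, the glucocorticoid receptor, stood at 5.07 and 4.93 at 0 h and was lower in all tamoxifen libraries. Its means were 3.76, 3.91 and 3.56 after 24, 48 and 72 h. Pomc, Tbx19, Neurod1 and Pcsk1 instead had both 72 h libraries above both at 0 h, as 27.4% of all tested genes did. Their means went from 629 to 670, 18.2 to 22.8, 4.27 to 5.03 and 18.7 to 22.9. At 24 h Pomc and Pcsk1 had been below both 0 h libraries, and Pomc at 48 h too. Crhr1 overlapped with 0 h at 72 h. Of the melanotrope markers, Pcsk2 went from 0.309 to 0.833 and Oacyl from 0.0150 to 0.627 in the means of 0 and 72 h, with Drd2 at 0 throughout. That list, most of it Pax7 itself, summed to 13.3 and 13.6 at 0 h and to 13.5 to 15.8 later. The part of these marker levels in the results was not tested.

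At 0 h the family had 2 abundant members and 7 scarce ones. Chd9 stood at 12.8 ± 0.0411 (SD, n = 2) and Chd4 at 12.5 ± 0.922, and their libraries overlapped. Chd8 came next at 2.05 ± 0.304, then Chd7 at 1.53, Chd6 at 1.35, Chd2 at 1.21, Chd1 at 1.02, Chd3 at 0.761 and Chd5 at 0.616. From Chd4 downward, no neighbours in this order overlapped at 0 h. Chd3 and Chd5 were below a mean signal of 1 over the 8 libraries, the level set for testing, so 7 of the 9 members were tested among 9606 genes.

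Chd9 (ENSMUSG00000056608.14, chromosome 8, 90828352 to 91054516, plus strand, GRCm38) was lower in every tamoxifen library than in both 0 h libraries. Its signal was 12.9 and 12.8 at 0 h, 10.5 and 9.17 at 24 h, 8.42 and 9.01 at 48 h, and 8.54 and 8.42 at 72 h. The 24 h libraries lay above the 48 h ones, while the 48 and 72 h libraries overlapped. In such bulk RNA, fewer cells with the transcript and less of it per cell cannot be told apart. The mean was 0.767 of its 0 h value at 24 h, 0.679 at 48 h and 0.661 at 72 h. On the log2(signal + 1) scale, which understates changes of low genes, the differences from 0 h were -0.35, -0.51 and -0.54. Among all tested genes these ranked 88th, 29th and 35th from the lowest; the choice of the gene rests on these values, so nothing more is read from them.

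**Figure D1:**
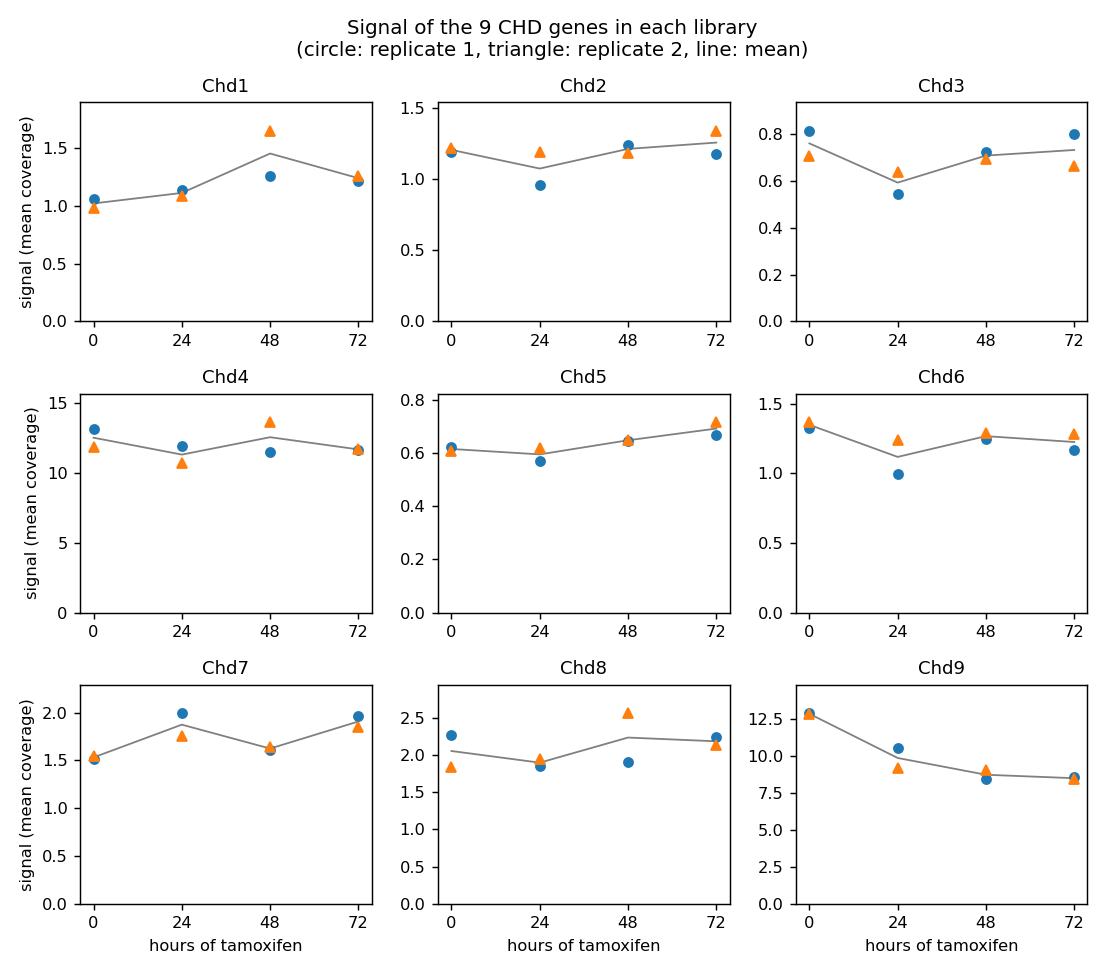
Signal (mean read coverage, linear axis from 0) of each CHD gene against hours of tamoxifen; circles are replicate 1, triangles replicate 2 and lines the mean of both. Chd9 goes from 12.8 at 0 h to 8.48 at 72 h, while the Chd4 libraries stay between 10.7 and 13.6.

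The exons of Chd9 add up to 23148 bases over a span of 226165. How reads on a base claimed by more than 1 gene were assigned is not given. Such bases are few in Chd9: 0.847% of its exonic bases lie in exons of another gene, Gm45641 on the other strand, whose mean was 0.0713. This share was 15.1% for Chd2, mostly with 1810026B05Rik on the same strand, 5.77% for Chd8, 1.05% for Chd5, 0.786% for Chd4 and 0 for Chd1, Chd3, Chd6 and Chd7.

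With the lower level of Chd9 its place in the family shifted. Chd9 made up 36.9% and 38.9% of the family's summed signal in the 0 h libraries, 34.5% and 32.4% at 24 h, 29.5% and 27.9% at 48 h and 29.0% and 28.7% at 72 h. The ratio of Chd9 to Chd4 went from 0.977 and 1.08 at 0 h to 0.732 and 0.720 at 72 h, so that Chd4 was the more abundant in every tamoxifen library. The signal of the other 8 genes together was 22.0 and 20.1 at 0 h and 19.2 to 23.3 later, a range that takes in the 0 h values. These shares follow from the fall that led to the choice of Chd9 and are a description.

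**Figure D2:**
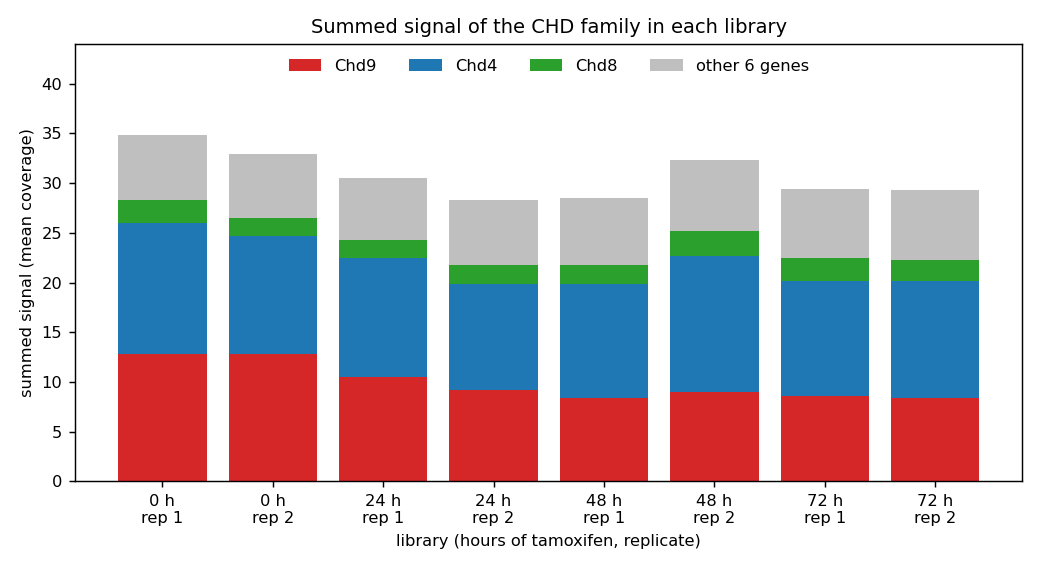
Stacked bars of signal (mean read coverage) summed over the 9 CHD genes in each of the 8 libraries, split into Chd9, Chd4, Chd8 and the other 6 genes. The Chd9 part shrinks from 12.9 and 12.8 at 0 h to 8.54 and 8.42 at 72 h.

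The other members were then compared with 0 h in a limma fit over all 9606 tested genes, with Benjamini-Hochberg adjustment at 0.05. None of the 6 tested members other than Chd9 was called at any time. At an unadjusted p under 0.05 there were 2 of these 6 at 24 h (Chd6 and Chd7), 1 at 48 h (Chd1) and 1 at 72 h (Chd7), against 13.2%, 10.5% and 15.7% of all tested genes. Over all 7 tested members, limma called 0 at 24 h, 1 at 48 h and 1 at 72 h, where it called 0.229%, 0.552% and 2.01% of all tested genes; the 1 was Chd9 both times, and nothing is read from it. The F test of limma over the 3 times called 0 of the 6 members other than Chd9 and 0.344% of all tested genes. At an unadjusted p under 0.05 it had 2 of these 6 (Chd1 and Chd7), beside 13.9% of all tested genes. The 95% intervals given below are the range of change on the log2(signal + 1) scale that these 2 libraries a group still allow. For members with a signal near 1 that scale narrows the range, so their intervals are not comparable with those of Chd4. With filter and pseudocount both lowered to 0.1, the Chd1 interval at 48 h went from 0.10 to 0.45 in the main fit to 0.18 to 0.74. The Chd4 interval at 72 h hardly moved, from -0.31 to 0.13 to -0.33 to 0.13.

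**Figure D3:**
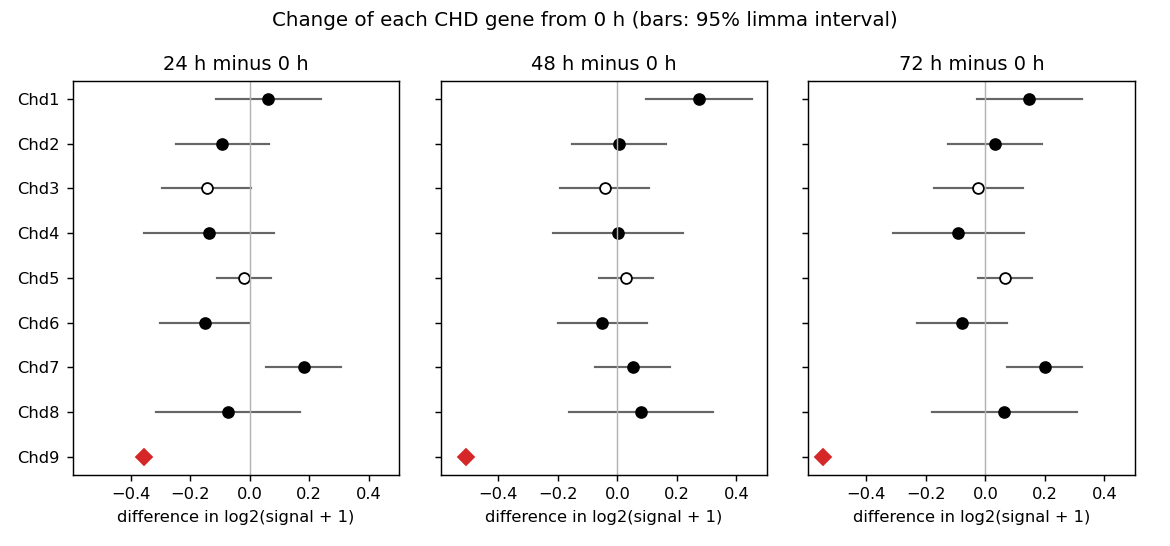
Difference from 0 h in log2(signal + 1) at 24, 48 and 72 h for each CHD gene. Black points are limma estimates with 95% intervals, open points (Chd3, Chd5) come from the fit without a filter on low values, and the red diamond is Chd9, shown without an interval as a description at -0.35, -0.51 and -0.54.

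In subfamily I, Chd1 (chromosome 17, 15704967 to 15772610), which helps polymerase through nucleosomes, had 1.06 and 0.981 at 0 h, 1.13 and 1.09 at 24 h, 1.26 and 1.65 at 48 h, and 1.22 and 1.26 at 72 h. Every tamoxifen library was above both 0 h libraries. The largest difference, at 48 h, was 0.28 (95% interval 0.10 to 0.45, limma adjusted p = 0.224). It was 0.16 without 48 h replicate 2, the highest library. The 48 h mean was 1.42 times the 0 h mean, a change that the log2(signal + 1) scale understates. At 24 and 72 h the differences were 0.06 and 0.15 (limma adjusted p = 0.747 and 0.405).

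Chd2 (chromosome 7, 73426638 to 73541830), its close relative, did not follow that order. It had 1.19 and 1.22 at 0 h, 0.957 and 1.195 at 24 h, 1.24 and 1.19 at 48 h, and 1.18 and 1.34 at 72 h, and its groups overlapped with 0 h at each time. The differences were -0.09, 0.00 and 0.03 (limma adjusted p = 0.592, 0.993 and 0.883), and the 72 h interval ran from -0.13 to 0.19. The 15.1% of its exonic bases shared with other genes applies to these values.

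In subfamily II, Chd4 (chromosome 6, 125095981 to 125130591), the main NuRD motor in many cells, had 13.2 and 11.9 at 0 h, 11.9 and 10.7 at 24 h, 11.5 and 13.6 at 48 h, and 11.7 in both 72 h libraries. The 72 h libraries lay below both at 0 h by less than the gap between the 0 h libraries. The differences were -0.14, 0.00 and -0.09, with limma adjusted p = 0.571, 0.999 and 0.712. With 1 library left out they ran from -0.21 to -0.061 at 24 h and from -0.16 to -0.021 at 72 h. The interval at 72 h ran from -0.31 to 0.13, and the difference between Chd4 and Chd9 was not tested.

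Chd3, the other widely expressed NuRD motor, had 0.815 and 0.708 at 0 h, 0.547 and 0.641 at 24 h, 0.726 and 0.693 at 48 h, and 0.802 and 0.665 at 72 h. The 24 h libraries were below both 0 h libraries, and the later ones overlapped with them. Being below the filter, it was read from the limma fit without one, which gave -0.14, -0.04 and -0.02 (adjusted p = 0.610, 0.949 and 0.987). Chd5, best known from neurons and testis, was the scarcest member at 0 h, with 0.622 and 0.610, and had 0.570 and 0.621 at 24 h, 0.647 and 0.651 at 48 h, and 0.669 and 0.717 at 72 h. Its 48 and 72 h libraries lay above those at 0 h, with differences of 0.03 and 0.07 (limma without a filter, adjusted p = 0.934 and 0.664); that fit called 0.0106%, 0.0133% and 0.167% of 37675 genes at 24, 48 and 72 h.

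Subfamily III holds the closest relatives of Chd9. Chd7 (chromosome 4, 8690406 to 8867659) differed from 0 h in the other direction. It had 1.52 and 1.55 at 0 h, 1.99 and 1.76 at 24 h, 1.61 and 1.64 at 48 h, and 1.97 and 1.85 at 72 h. All 6 tamoxifen libraries lay above both 0 h libraries, and the 48 h ones lay below those of 24 and 72 h. The differences were 0.18 at 24 h (95% interval 0.06 to 0.31, limma adjusted p = 0.248), 0.05 at 48 h (limma adjusted p = 0.838) and 0.20 at 72 h (95% interval 0.07 to 0.33, limma adjusted p = 0.126), and none passed the threshold.

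Chd6 (chromosome 2, 160946978 to 161109075) had 1.33 and 1.37 at 0 h, 0.998 and 1.24 at 24 h, 1.24 and 1.29 at 48 h, and 1.17 and 1.28 at 72 h. It was lower in all 6 tamoxifen libraries than in both 0 h libraries. The differences were -0.15, -0.05 and -0.08 (limma adjusted p = 0.376, 0.870 and 0.623), and none was called. The 24 h difference was -0.069 without 24 h replicate 1 and -0.23 without 24 h replicate 2. Chd8 (chromosome 14, 52198151 to 52257780), which also restrains beta-catenin, had 2.27 and 1.84 at 0 h, 1.85 and 1.94 at 24 h, 1.91 and 2.56 at 48 h, and 2.24 and 2.13 at 72 h, overlapping with 0 h each time. Its differences were -0.07, 0.08 and 0.06 (limma adjusted p = 0.795, 0.875 and 0.841), within intervals that reached -0.18 and 0.31 at 72 h.

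Among the 6 tested members other than Chd9, 2 (Chd1 and Chd7) had both libraries above both at 0 h at each of the 3 times. At 24, 48 and 72 h taken singly, 24.4%, 24.3% and 27.4% of all tested genes did. The 3 times share the same 0 h libraries, and the share of genes keeping 1 order at all 3 was not counted. Both libraries lay below both at 0 h for 1 member at 24 h, 1 at 48 h (Chd6 both times) and 2 at 72 h (Chd4 and Chd6). Of all tested genes 17.8%, 22.0% and 22.4% did so. These 6 had a median difference of -0.08 at 24 h, 0.03 at 48 h and 0.05 at 72 h, beside 0.01, 0.00 and 0.01 over all tested genes. One library stood out within the family: 48 h replicate 2 held the highest value of any library for Chd1, Chd4 and Chd8. Without it the 48 h differences were 0.16 for Chd1, -0.11 for Chd4 and -0.07 for Chd8 (limma adjusted p = 0.596, 0.871 and 0.939), so the last 2 changed sign.

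Genes near Chd9 were read next, as the 3 nearest on each side with a mean signal of at least 0.1. All had far less signal than Chd9, between 0.180 and 1.14 on average. The nearest after it, 15540 bases away, was Rbl2, a pocket protein of the retinoblastoma family, with 0.622 and 0.812 at 0 h and 0.854 and 0.807 at 72 h (limma without a filter, adjusted p = 0.776). Aktip stood at 1.06 and 1.07 at 0 h, then at 1.11 and 1.04 at 72 h (limma adjusted p = 0.971). Its libraries were above both at 0 h at 24 h, 1.19 and 1.24, and at 48 h, 1.11 and 1.28 (limma adjusted p = 0.478 and 0.660). That order was seen in 24.4% and 24.3% of all tested genes. Gm45464, which lies inside the Aktip span, had 0.157 and 0.173 at 0 h against 0.220 and 0.164 at 72 h (limma without a filter, adjusted p = 0.875). At 48 h Gm45464 had 0.212 and 0.194, above both at 0 h (limma without a filter, adjusted p = 0.848). Before Chd9, Gm35963 had 0.181 and 0.185 as means at 0 and 72 h, Tox3 0.499 and 0.557, and Cyld, a deubiquitinase gene 2076406 bases away, 1.05 and 0.939. None of the 6 was called by limma at any time, and 0 had an unadjusted p under 0.05. All but Aktip were read without a filter, where limma called 0.0106%, 0.0133% and 0.167% of 37675 genes at 24, 48 and 72 h. So few calls there mean that the lack of one says little. With the filter, limma called 0.229%, 0.552% and 2.01%, and 13.2%, 10.5% and 15.7% had an unadjusted p under 0.05. That last share was not counted without a filter. Tox3 was higher in every tamoxifen library than at 0 h, by 17.9%, 20.6% and 11.5% at 24, 48 and 72 h in the means (limma without a filter, adjusted p = 0.765, 0.768 and 0.805). Cyld was lower in every tamoxifen library than at 0 h, by 10.6% at 72 h in the means (limma without a filter, adjusted p = 0.632). Inside the Chd9 span, Gm6658 on the other strand gave 0.269 and 0.195 at 0 h, while its 72 h libraries, 0.186 and 0.241, overlapped with these (limma without a filter, adjusted p = 0.956).

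The 5 tested genes whose log2 levels followed Chd9 most closely over the 8 libraries were Scarb2, B4galt4, Fam174b, Cdc42ep3 and Rtp1, with Pearson r of 0.993, 0.982, 0.981, 0.979 and 0.979. They were taken as the highest of all tested genes, so high values of r are built in and carry no test, and all share the same libraries. Scarb2, a lysosomal membrane protein, had 4.91 and 4.83 at 0 h, 4.22 and 3.73 at 24 h, 3.37 and 3.46 at 48 h, and 3.41 and 3.32 at 72 h. B4galt4, a galactosyltransferase, went from 2.90 to 1.74 in the means of 0 and 72 h, Cdc42ep3, which binds the GTPase Cdc42, from 1.63 to 0.926, Fam174b from 6.54 to 5.08 and Rtp1 from 2.41 to 1.77. At 24 h all 5, like Chd9, were lower in replicate 2 than in replicate 1. Among CHD members the r with Chd9 ran from -0.62 for Chd1 and -0.51 for Chd7 to 0.26 for Chd6 and 0.34 for Chd4.

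**Figure D4:**
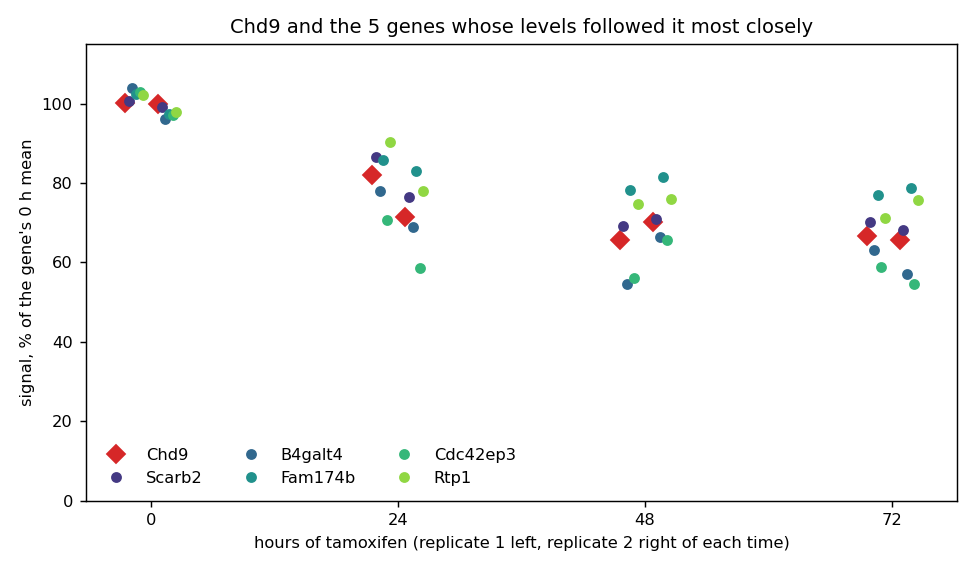
Signal of Chd9 (red diamonds) and of the 5 genes with the highest correlation with it, as a percent of each gene's mean at 0 h, in every library against hours of tamoxifen. Chd9 lies at about the middle of the 6 genes at 72 h, with a mean ratio of 0.661, between Cdc42ep3 at 0.568 and Fam174b at 0.778.

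Partners of the family were read from 4 lists. All 15 genes of NuRD and of the ChAHP complex, in which Chd4 works with Adnp and HP1 proteins, were tested. Of these, 0, 1 and 2 had an unadjusted limma p under 0.05 at 24, 48 and 72 h. The shares of all tested genes were 13.2%, 10.5% and 15.7%. After adjustment limma called 0 at 24 and 48 h, beside 0.229% and 0.552% of all tested genes. At 72 h it called 1 higher and 0 lower, where 1.27% of all tested genes were called higher. The gene was Mta3, a scaffold subunit of NuRD, with 0.934 and 0.963 at 0 h, 1.116 and 1.056 at 24 h, 1.199 and 1.192 at 48 h, and 1.31 and 1.46 at 72 h. Its mean at 72 h was 1.46 times that at 0 h, with a difference of 0.29 (SE 0.05, limma adjusted p = 0.0364). Its 0 h level is below the filter, which it passed through the later libraries, so the call is not read as support for a change. It was lost without a filter (limma adjusted p = 0.0984), with the replicate block (0.0593), with only the 2 groups compared (0.0752) and without either 0, 48 or 72 h replicate (between 0.0834 and 0.223).

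Its relatives and partners gave no further call. Mta1 had 5.21 ± 0.102 at 0 h and 5.93 ± 0.588 at 72 h, and the HP1 gene Cbx1 8.01 ± 1.48 and 6.81 ± 1.17 (limma adjusted p = 0.385 and 0.613). Cdk2ap1 had 6.28 ± 0.0595 and 5.26 ± 0.283, with a difference of -0.22 (limma adjusted p = 0.263). The 15 genes had a median difference of 0.02 at 24 h, -0.03 at 48 h and -0.05 at 72 h.

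Of 21 other SNF2 remodeller ATPases 13 were tested, with 0 called by limma at any time. At 24, 48 and 72 h limma called 0.229%, 0.552% and 2.01% of all tested genes. An unadjusted limma p under 0.05 was had by 1, 0 and 2 of the 13, against 13.2%, 10.5% and 15.7% of all tested genes. Srcap, which loads the histone variant H2A.Z, had 1.89 ± 0.231 at 0 h and 2.27 ± 0.141 at 72 h, and Smarcal1, which remodels stalled forks, 1.74 and 2.09 (limma adjusted p = 0.292 and 0.281). The ISWI motor Smarca5 had 6.19 and 5.75, and the SWI/SNF motor Smarca2 1.56 and 1.37 (limma adjusted p = 0.583 and 0.416). Their median differences were 0.01, 0.00 and 0.04.

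Of 15 elongation and chromatin partners of Chd1, Chd7 and Chd8, 14 were tested and limma called 0 at each time. The shares called of all tested genes were 0.229%, 0.552% and 2.01% at 24, 48 and 72 h. At an unadjusted limma p under 0.05 there were 1, 0 and 0, against 13.2%, 10.5% and 15.7% of all tested genes. The FACT subunits Supt16 and Ssrp1, which handle histones at the polymerase, stood at 5.44 ± 0.0332 and 12.4 ± 0.875 at 0 h, then at 4.47 ± 0.0866 and 13.2 ± 0.199 at 72 h (limma adjusted p = 0.327 and 0.586). Paf1 had 5.24 and 4.57, and Ash2l 7.38 and 7.995 (limma adjusted p = 0.483 and 0.532). The list medians were 0.02, -0.03 and -0.03.

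Of 11 genes linked to PPAR alpha coactivation, where Chd9 is also placed, 6 were tested and limma called 0 at each time. Among all tested genes it called 0.229%, 0.552% and 2.01% at 24, 48 and 72 h. At an unadjusted limma p under 0.05 there were 0, 0 and 1, against 13.2%, 10.5% and 15.7% of all tested genes. Ppara itself was nearly silent, at a mean of 0.00116, and its partner Rxra was at 0.614. Carm1, an arginine methyltransferase coactivator, had 2.53 ± 0.127 at 0 h and 2.84 ± 0.0586 at 72 h, and the acetyltransferase gene Crebbp 1.57 and 1.70 (limma adjusted p = 0.301 and 0.550). Prmt1 had 4.64 and 4.29, and Med1 2.13 and 2.08 (limma adjusted p = 0.656 and 0.887), and the list medians were 0.00, -0.01 and 0.01.

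**Figure D5:**
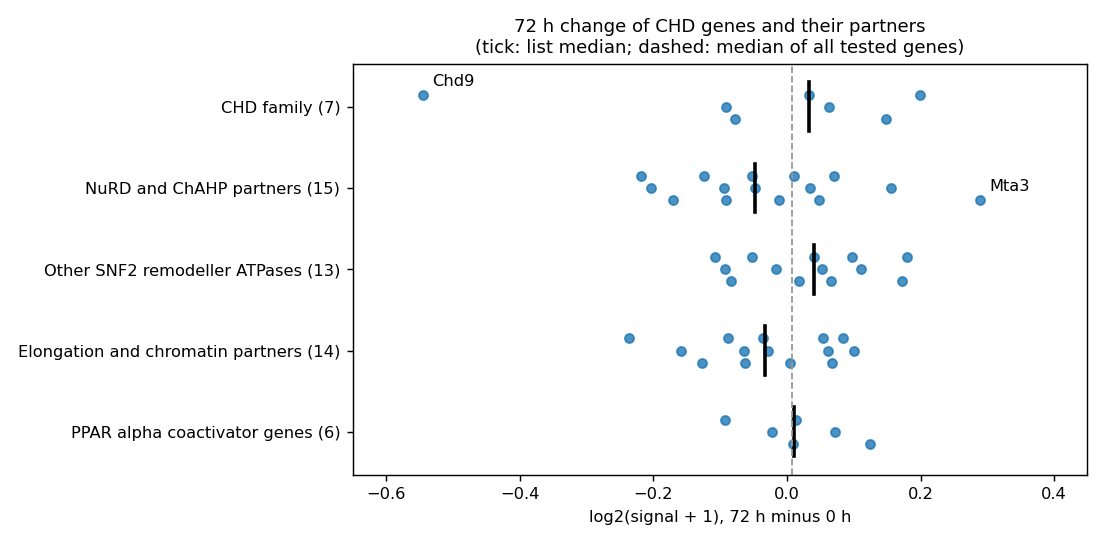
Difference between 72 h and 0 h in log2(signal + 1) for each tested gene of the CHD family and of the 4 partner lists (number tested in brackets); points are genes, black ticks list medians and the dashed line the median of all tested genes. Chd9 lies at -0.54, apart from all other points, and Mta3 at 0.29.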

How the data were processed

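RNA from AtT-20 cells with ER-Pax7 was extracted with a column kit and depleted of ribosomal RNA, per the labels' protocols; the molecule field of the labels names genomic DNA, but the series design names RNA. Each deposited value is taken to be a signal, the average coverage of a gene's pooled exons, which the authors had scaled. Per the submitters' processing notes the tools were HISAT2 2.2, SAMtools 1.12 and deepTools 3.5. Not given in the sources used here are the counting, scaling and strand settings; the build named there is GRCm38. Read depth is unknown, so no counting intervals are given. Whether replicates came from separate cultures is not labelled, so the spread behind each p-value may be only technical.

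Exon starts in the files are counted from 0 and are printed here from 1. Genes whose signal averaged at least 1 were transformed as log2(signal + 1) and fitted with limma 3.58.1 (R 4.3.3) with an intensity trend and group as the only term, leaving 4 residual degrees of freedom. The script was tested on simulated data. Genes below the filter were read from a fit without one. The plan allowed for counts, but the files hold coverage. Named were the 9 members; in each partner list the called genes and the 2 highest and 2 lowest at 72 h; the 5 genes most correlated with Chd9; and its 3 nearest genes a side. The members, lists and rules were chosen with earlier results of these data known. Alternatives were another pseudocount, no filter, other scalings, no trend, a replicate block, only the groups compared, and each library left out.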

Additional observations from a re-analysis of the deposited data

How the results depend on the processing

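No member other than Chd9 was called by limma under any of the alternatives run. The lower floor, a mean of at least 0.1 with a pseudocount of 0.1, was chosen after seeing the data. The count of members called held Chd9 alone, on whose fall the family was chosen, so its changes are a description and say nothing of stability. It went from 1 at 48 h to 0 without a filter and to 0 with the replicate number as a block, and from 1 at 72 h to 0 without a filter. Leaving out 1 library gave 0 to 1 at 48 h and 0 to 1 at 72 h: it was 0 without either 0 h library at both times, without either 48 or 72 h library at 48 h, and without either 72 h library at 72 h. The F test went from 0 to 1 with trimmed mean rescaling and with quantile normalization, and was 0 to 1 with 1 library left out (1 without either 24 h library). The NuRD call at 72 h, Mta3, went from 1 to 0 without a filter, with the replicate block (limma adjusted p = 0.0593) and with only the 2 groups compared (limma adjusted p = 0.0752), and was 0 to 1 with 1 library left out. The size of the Chd9 difference moved from -0.54 to -0.59 at 72 h with a pseudocount of 0.1, and with 1 library left out ran from -0.44 to -0.26 at 24 h, from -0.55 to -0.47 at 48 h and from -0.55 to -0.54 at 72 h.

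Differences near 0 changed sign. Chd2 at 48 h became -0.0063 and Chd4 at 48 h -0.0090 with quantile normalization, and Chd4 at 48 h -0.0019 with trimmed mean rescaling. With 1 library left out, Chd2 ran from -0.013 to 0.022 at 48 h and from -0.020 to 0.085 at 72 h, Chd3 from -0.087 to 0.00098 at 48 h and from -0.081 to 0.033 at 72 h, Chd4 from -0.11 to 0.12 at 48 h, Chd5 from -0.042 to 0.0046 at 24 h, and Chd8 from -0.17 to 0.029 at 24 h, -0.066 to 0.22 at 48 h and -0.038 to 0.17 at 72 h. The replicate numbers were not shown to pair libraries at all times. Deviations from the group mean correlated across genes at 0.18 (0 and 24 h), 0.34 (0 and 48 h) and 0.40 (24 and 48 h). Between 72 h and the other times they correlated at -0.016 to 0.099. The main fit has no replicate term, and the replicate block changed no other call among the members or lists. The cause of these shifts was not tested.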
